A study of Mus musculus with 2 samples.

Results

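The deep repeat segments are 5 short stretches of the mouse genome (build mm9) on which bisulfite reads piled up in both libraries. They were taken as fixed intervals: positions 98502393 to 98507490 on chromosome 2, a pair of stretches on chromosome 9 (3000046 to 3036070, and 35112826 to 35113166), 3109872 to 3110106 on chromosome 12, and 103599107 to 103599285 on chromosome 6. The first chromosome 9 interval is called the chromosome 9 start segment here and the second the chromosome 9 inner segment. The 5 segments held 5727 cytosines listed in either library. In replicate 1 they held 5480 of the 172020 listed cytosines, and in replicate 2 they held 5246 of 27435342. Both libraries listed 4999 of the 5727 cytosines. The intervals are named for their depth in these same libraries, so depth inside them is given as a description and not as a finding.

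The study made whole-genome bisulfite libraries from the dentate gyrus of adult male C57Black6 mice aged 8 to 10 weeks, a hippocampal region dominated by granule neurons. The tissue was micro-dissected from both hemispheres, so every value averages over neurons and other cells. There was 1 group of 2 libraries, labelled wild type, which the series describes as biological replicates. In such libraries a cytosine that resists conversion by bisulfite is counted as methylated, and methylcytosine and hydroxymethylcytosine are counted alike. Levels are given as the percent of reads at a cytosine that were methylated. CHG and CHH, where H stands for A, C or T, are together called CpH.

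Mouse chromosomes carry long tandem arrays of satellite DNA around their centromeres. Major satellite forms the pericentromeric heterochromatin, minor satellite lies at the centromere itself, and both are heavily methylated at CpG in somatic cells. CpH methylation, by contrast, is a mark of mature neurons. Genome builds hold only a few of the many satellite copies, so a read listed at one position in such a segment need not come from that position. Whether it did was not tested. No mm9 sequence or repeat annotation was used here, so the repeat family of each segment was not checked and no sequence is shown.

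Depth was uneven within every segment and followed the same shape in both libraries. A read call is 1 read at 1 cytosine. Of the read calls at listed nuclear cytosines, segment cytosines took 76.7% in replicate 1 but 4.79% in replicate 2. Cytosines with fewer reads than the lowest deposited count enter neither total, so these are not shares of all nuclear read calls. The totals also rest on very different lists, of 172020 cytosines in replicate 1 and 27435342 in replicate 2. The deepest site, in CHH context, lay at position 98507293 of chromosome 2, read 289199 times in replicate 1 and 471268 times in replicate 2. Its level was only 0.710% and 0.600%. The median shared site of the chromosome 2 segment had 5597 reads in replicate 1 and 14301 in replicate 2, and that of the chromosome 9 start segment 188 and 356. The inner, chromosome 12 and chromosome 6 segments had medians of 40420, 22573 and 7202 reads in replicate 1. Site depths of the libraries rose and fell together, with a Spearman's rho between 0.955 and 0.999 across the sites of each segment, which share their library and neighbouring reads. The ratio of replicate 1 to replicate 2 reads was not constant. It was 0.592 in the chromosome 2 segment, 0.578 in the inner segment and 0.574 in the chromosome 12 segment, but 0.390 in the chromosome 9 start segment and 0.288 in the chromosome 6 segment.

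CpG methylation was high in all 5 segments and nearly the same in both libraries. The read-weighted CpG level, methylated reads over all reads, was 85.6% in replicate 1 and 85.4% in replicate 2 of the chromosome 2 segment. It was 82.0% and 82.7% in the chromosome 9 start segment, 84.0% and 83.8% in the inner segment, 90.2% and 90.5% in the chromosome 12 segment, and 85.7% and 86.0% in the chromosome 6 segment. The largest SD between the libraries was 0.483 percentage points (n = 2), in the chromosome 9 start segment. All other nuclear CpG sites together stood at 55.2% (replicate 1) and 77.2% (replicate 2). Each segment was therefore above the rest in each library, by 26.9 to 35.0 points in replicate 1 and by 5.55 to 13.3 points in replicate 2. The size of that gap rested on which other sites a library listed: the rest stood at 66.9% in replicate 1 and 79.7% in replicate 2 among sites of at most 100 reads. With every site weighted equally, the gap of the longer segments nearly vanished or turned round in replicate 2, where the chromosome 9 start segment averaged 78.2% and the chromosome 2 segment 80.3%, against 79.7% at other nuclear sites. With 2 libraries an exact paired permutation test cannot give a two-sided p under 0.5.

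Most CpG sites of the segments were highly methylated, but not all. In the chromosome 9 start segment 239 of 413 shared CpG sites were at 80% or more in both libraries, 108 lay between 50% and 80% in both, and 6 were under 10% in both. Of the 64 shared CpG sites of the chromosome 2 segment, 46 were at 80% or more in both libraries. A one-sided exact binomial test against the mitochondrial CpH rate of the library (Benjamini-Hochberg adjusted p under 0.01) called 516 of 522 CpG sites in replicate 1 and 474 of 477 in replicate 2. Over all nuclear CpG sites tested, 96.8% were called in replicate 1 and 98.7% in replicate 2, so the share in the segments was near the background.

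CpH methylation differed from segment to segment by a larger ratio than CpG methylation did, and in 4 segments single cytosines held much of it. The CHH level was 9.88% in replicate 1 and 9.73% in replicate 2 of the chromosome 12 segment, against 1.33% and 0.876% at other nuclear sites. It was 1.82% and 1.76% in the inner segment and 1.58% and 1.44% in the chromosome 2 segment. In the chromosome 9 start segment the CHH level was 1.18% and 0.671%, and in the chromosome 6 segment 0.673% and 0.485%, below other nuclear sites in both libraries. The direction in the chromosome 9 start segment turned round with sites weighted equally, when its CHH average was 2.16% and 1.26%, against 1.27% and 0.891% at other nuclear sites. CHG went the other way: the chromosome 6 segment had 4.65% and 3.88%, against 0.903% and 0.777% at other nuclear sites, while the chromosome 12 segment had 0.521% and 0.436%. The chromosome 2, chromosome 9 start and inner segments had CHG levels between 0.835% and 0.963% in replicate 1 and between 0.567% and 0.647% in replicate 2. Mitochondrial CpH, used here as the background of each library, was at 0.418% and 0.368%. The exact Clopper-Pearson 95% interval of the chromosome 12 CHH level was 9.80% to 9.97% in replicate 1 and 9.66% to 9.79% in replicate 2. Such intervals cover counting error alone, since reads copied by PCR and carrying no molecular identifier may repeat 1 molecule.

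In 4 of the 5 segments a single cytosine carried about as many methylated CpH reads as all others together, or more. In the chromosome 12 segment it was the CHH cytosine at position 3109970, at 75.7% of 56023 reads (replicate 1) and 78.3% of 97079 reads (replicate 2; exact 95% interval 78.1% to 78.6%). That cytosine held 88.2% of the segment's methylated CpH reads in replicate 1 and 91.2% in replicate 2. On chromosome 2 the CHH cytosine at position 98507232 was at 85.2% of 67490 reads and 84.4% of 112891 reads, near the CpG level of its segment. It held 47.3% of the methylated CpH reads in replicate 1 and 51.8% in replicate 2. The inner segment had the CHH cytosine at position 35112932, at 62.7% of 19255 reads and 63.0% of 34237 reads, with 56.7% and 62.7% of the methylated CpH reads. The chromosome 6 segment had a CHG cytosine at position 103599159, at 23.5% of 8664 reads and 20.1% of 29255 reads, with 52.7% and 55.5% of them.

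With all sites of 10% or more left out, which is a selection on the level itself, the segments came close together. Among CpH sites under 10%, the 5 segments were between 0.648% and 0.793% in replicate 1 and between 0.478% and 0.589% in replicate 2, with the chromosome 6 segment lowest and the chromosome 9 start segment highest in each. The chromosome 12 segment, at 7.75% and 7.69% over all its CpH sites, was at 0.653% and 0.533% by this measure. With the single leading site left out instead, the 5 segments ranged from 0.648% to 1.12% in replicate 1 and from 0.478% to 0.743% in replicate 2. Among sites under 10%, all 5 segments lay above the mitochondrial CpH level of their library, by 0.230 to 0.375 points in replicate 1 and by 0.111 to 0.222 points in replicate 2. No CpH site of the inner or chromosome 6 segment other than the one named reached 5% in either library. The second highest in the inner segment was a CHG cytosine at position 35113068, at 1.33% and 0.929%. In the chromosome 6 segment it was a CHH cytosine at position 103599158, directly 5′ of the CHG cytosine just described, at 4.33% and 1.54%. In the chromosome 12 segment 1 further cytosine was high, a CHH cytosine at position 3110040 with 26.0% of 7913 reads and 15.7% of 13707 reads, and all others were under 1.1%.

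The chromosome 9 start segment had no such dominant site. Its 5 leading sites, of 4515 in replicate 1 and 4166 in replicate 2, held 6.64% and 4.86% of the methylated CpH reads. In the chromosome 12 segment the 5 leading sites, of 26, held 95.4% and 96.0%. Lists of such unlike length make these shares unlike measures. In the chromosome 9 start segment 181 of 4515 CpH sites in replicate 1 and 85 of 4166 in replicate 2 were at 10% or more. Together they carried 32.1% and 12.0% of its methylated CpH reads. Of its shared CpH sites 2.07% were at 10% or more in both libraries, against 1.16% to 7.69% in the other segments. Among sites with at least 100 reads in both libraries the highest in replicate 2 were CHH cytosines at position 3030250 (78.5% in replicate 1 and 73.2% in replicate 2), position 3023417 (62.3% and 54.6%), position 3031107 (59.5% and 54.0%), position 3000061 (56.4% and 53.9%) and position 3000848 (63.3% and 52.3%). By kilobase, the CpH level of this segment ran from 0.618% to 6.22% in replicate 1 and from 0.399% to 3.74% in replicate 2, and it was higher in replicate 1 in 37 of 37 kilobases. The deepest kilobase held 26.5% of the segment's reads in replicate 1 and 31.8% in replicate 2 and was at 0.618% and 0.500%, the lowest of all 37 in replicate 1.

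A tandem repeat showed in the spacing of the listed cytosines themselves, whatever their level, though not equally in all segments. In the chromosome 9 start segment the commonest distance between CpG sites was 234 bp, with 152 pairs, followed by 468 bp with 91 pairs and 58 bp with 82 pairs. CpH sites were most often 234 bp apart too, with 2164 pairs. The chromosome 12 segment is 235 bp long, 1 bp more than that distance. In the chromosome 2 segment 234 bp did not stand out. Its CpG sites had 9 pairs at 234 bp, as many as at 88 bp and at 251 bp. Its CpH sites had 62 pairs at 234 bp, against 94 at 28 bp, 85 at 118 bp and 80 at 120 bp. In the chromosome 6 segment the commonest distance above 50 bp was 120 bp, with 15 pairs among 41 listed cytosines. Mouse major satellite is known as a tandem repeat with a unit of 234 bp and minor satellite as one with a unit of 120 bp. In these data only the distances were compared.

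**Figure D1:**
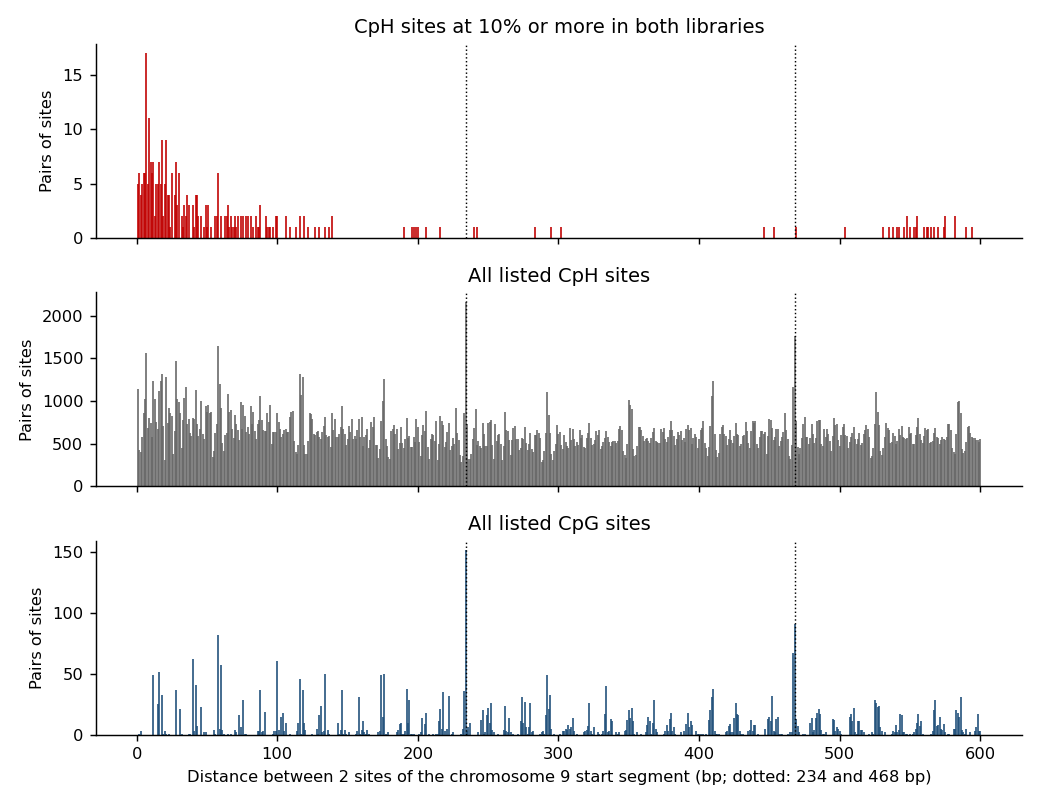
Number of pairs of sites at each distance from 1 to 600 bp in the chromosome 9 start segment, for CpH sites at 10% or more in both libraries (top), all listed CpH sites (middle) and all listed CpG sites (bottom), each with its own linear axis. Dotted lines mark 234 and 468 bp: listed CpG and CpH sites peak there with 152 and 2164 pairs at 234 bp. High CpH sites, with few pairs in all, have 0 pairs at 234 bp, and their commonest distance is 7 bp.

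Pairs of high CpH sites were too few to tell whether these sites followed that period. Of 4061 shared CpH sites of the chromosome 9 start segment, 84 were at 10% or more in both libraries, and no pair of them was 234 bp apart. Their commonest distances were 7 bp with 17 pairs and 9 bp with 11 pairs. At a threshold of 5% there was 1 pair at 234 bp, and at 20% there was none. The 84 sites made 323 pairs up to 600 bp apart, against 381487 for all listed CpH sites of the segment. With so few pairs, 0 at 234 bp does not show a lack of the period. Over all 5 segments 92 of 4504 shared CpH sites (2.04%) reached 10% in both libraries, against 1.03% of all shared nuclear CpH sites, segments included, and 0.979% of those outside the segments.

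The period allowed cytosines of different copies to be set side by side. Positions in the 234 bp unit were counted from the first base of the chromosome 12 segment, and the inner segment was shifted to give the most coincidences: 41 of its 44 listed cytosines then fell on unit positions listed in the chromosome 12 segment, and the next best shift gave 25. Of 43 pairs of cytosines at the same unit position, 41 had the same context. The pair of copies thus shared nearly their whole pattern of listed cytosines, and CpG sites in one or the other lay at 8 unit positions, namely 11, 39, 51, 99, 154, 169, 185 and 227. These are called unit CpG positions. The numbering was made after the data were seen, from positions and contexts and not from levels.

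The cytosines that differed in context at a shared unit position included the high CHH cytosines. A further 3 inner cytosines, at unit positions 185, 204 and 216, had no counterpart listed on chromosome 12, and the CpG at 154 and the CHG at 177 of chromosome 12 had none in the inner segment. At unit position 99 the chromosome 12 segment had the CHH cytosine at 75.7% and 78.3% described above, and the first copy in the inner segment had the CHH cytosine at 62.7% and 63.0%. Just 234 bp further on, at the same unit position of the next copy, the inner segment had a CpG at position 35113166, at 85.4% of 3849 reads and 86.0% of 7789 reads. At unit position 169 the chromosome 12 segment had the CHH cytosine at 26.0% and 15.7%, where the inner segment had a CpG at position 35113002 with 93.2% and 93.1%. The 3 high CHH cytosines of these segments thus all stood where another copy of the unit had a CpG. All other CpH cytosines of both segments were at or under 1.33% in both libraries.

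**Figure D2:**
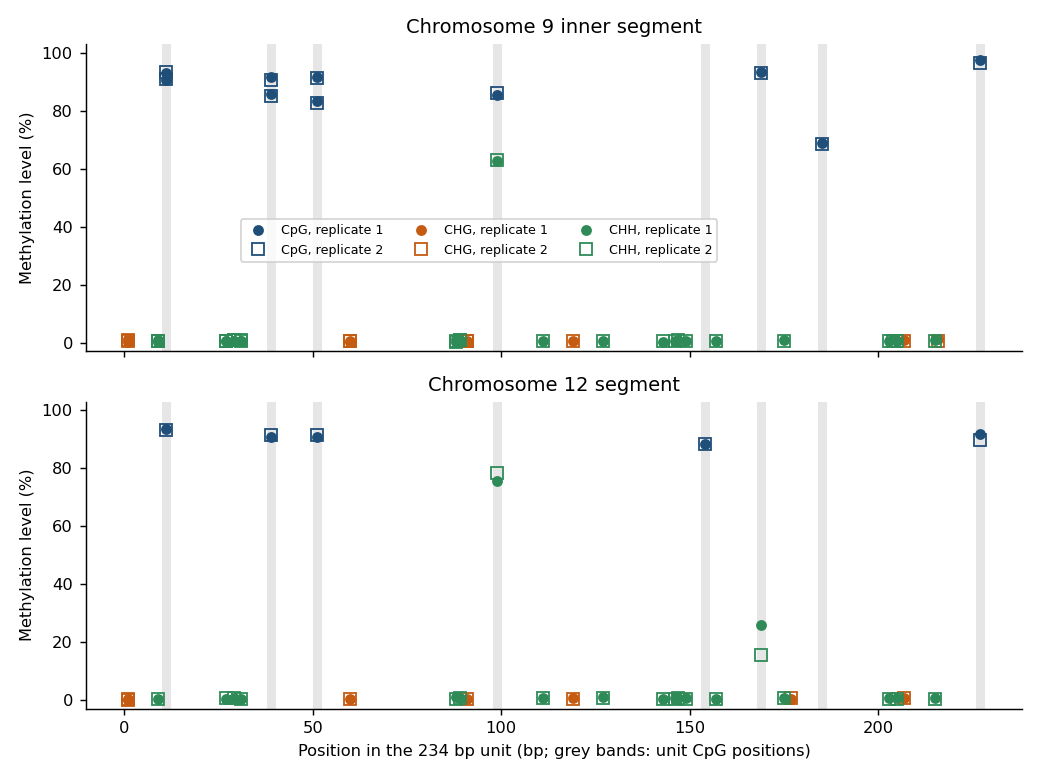
Methylation level (percent) of each listed cytosine of the chromosome 9 inner segment (top) and the chromosome 12 segment (bottom) against its position in the 234 bp unit, coloured by context, with filled circles for replicate 1 and open squares for replicate 2. Grey bands mark the 8 unit CpG positions: CHH cytosines outside them lie near 0, while those at positions 99 and 169 reach 62.7% to 78.3% and 15.7% to 26.0%.

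To extend this to the longer segments, each cytosine was placed in the unit by the spacing of the CpG sites within 234 bp of it, leaving the cytosine itself out. A placement needed at least 4 of those CpG sites on unit CpG positions and a lead of 2 over the next best. In the chromosome 9 start segment 3785 of 5183 listed cytosines (73.0%) were placed, every one with the unit in the opposite order to the chromosome 12 segment, and 291 of 320 placed CpG sites fell on a unit CpG position. Of 428 in the chromosome 2 segment, 126 were placed in the same order and 92 in the opposite order. The chromosome 6 segment, with its 120 bp spacing, was not placed.

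Many CpH cytosines that stood at unit CpG positions were high, and a pair of positions held most of these. Of 27 such CpH sites, 19 (70.4%) were at 10% or more in both libraries, with a median level of 43.1% in replicate 1 and 42.2% in replicate 2 over the 27. Of 3348 CpH sites placed elsewhere in the unit, 41 (1.22%) reached 10% in both, with medians of 0.615% and 0.467%. The 19 comprised 14 in the chromosome 9 start segment, 2 in the chromosome 2 segment, 2 in the chromosome 12 segment and 1 in the inner segment. Copies in an array share descent and possibly reads, so these sites are not independent and no test was made. With looser placing (3 CpG sites, lead of 1) the count was 22 of 36, and with stricter placing (5 CpG sites) it was 17 of 25.

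Unit position 39 was the clearest case. It held 9 CpH cytosines, all CHH, of which 8 lay in the chromosome 9 start segment and 1 in the chromosome 2 segment, and all 9 were at 10% or more in both libraries. Their median was 56.3% in replicate 1 and 44.1% in replicate 2, and the lowest in replicate 2 was at 19.8%. The 30 copies of the chromosome 9 start segment that had a CpG at this position were at a median of 85.8% and 85.6%, so CHH cytosines at position 39 lay below CpG at the same place. All 4 CpH cytosines at unit position 227 were high as well, between 27.2% and 78.5% in replicate 1 and between 20.5% and 80.2% in replicate 2. At the other 5 positions 6 of 14 were high. The CHH cytosine at position 3019089 of the chromosome 9 start segment, at unit position 99, was at only 4.70% and 2.65%. The CHH cytosine at position 98502685 of chromosome 2, at unit position 154, was at 0.251% of 3192 reads and 0.346% of 10703 reads, and both CpH sites at unit position 169 of the chromosome 9 start segment were under 6% in both libraries, at 3.51% and 5.96% (position 3000690) and at 5.12% and 3.60% (position 3023521). By contrast, position 98507232 of chromosome 2, the high CHH cytosine described above, also stood at unit position 154. The CHH cytosine at position 98504075, the second highest of that segment with 42.8% and 42.2%, stood at unit position 39. At unit positions 99, 154 and 169, CpH sites of copies in the same order as the chromosome 12 segment all reached 10% in both libraries. Those of copies in the opposite order were all under 10% in both. At positions 39 and 227 all CpH sites were of copies in the opposite order, and all were high. The counts are on 1 strand class, so the order of a copy and the strand of the unit that was read could not be told apart. The part of either was not tested.

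Distances between high cytosines at the same unit position were mostly not whole multiples of the unit. Among the 8 CHH cytosines at unit position 39 of the chromosome 9 start segment, 0 of the 7 gaps between neighbours was exactly a whole number of units, and 5 fell short of one by 57 to 62 bp. At unit position 227 the 3 gaps were 1172, 469 and 1517 bp, of which the first and second were within 2 bp of 5 and of 2 units.

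**Figure D3:**
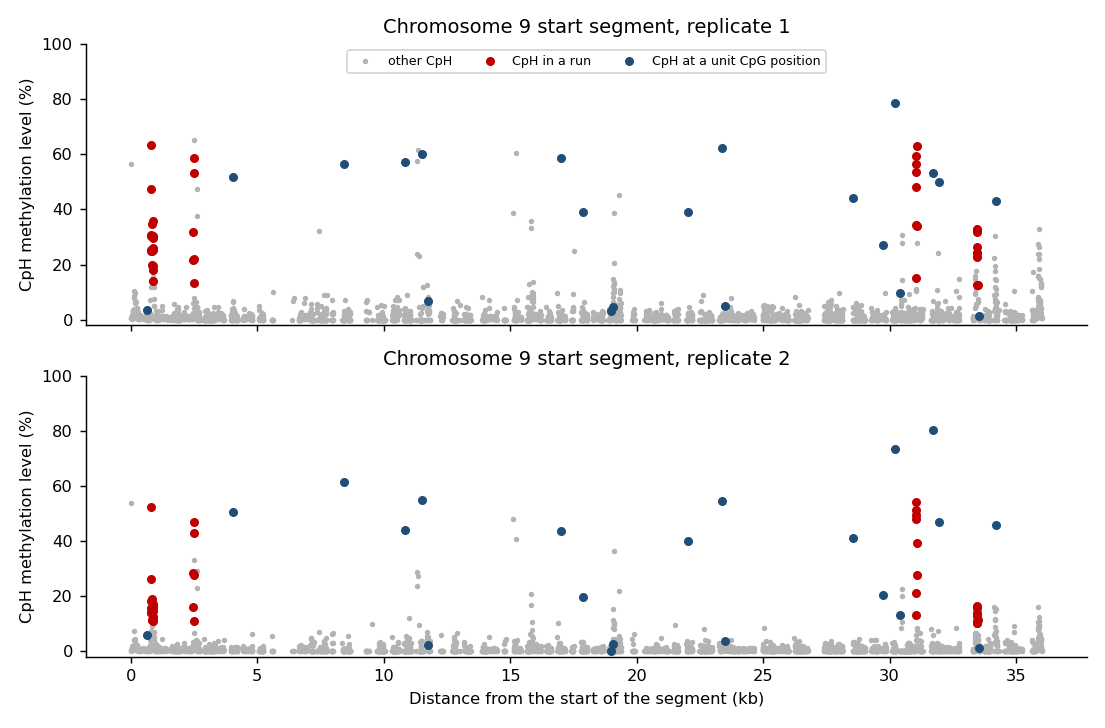
CpH methylation level (percent) of every CpH site listed in both libraries along the chromosome 9 start segment, against the distance from its start in kb, for replicate 1 (top) and replicate 2 (bottom). Blue points are CpH sites at unit CpG positions, spread singly along the segment; red points are the 40 sites in 5 runs, which stand as narrow columns and are higher in replicate 1 at 38 of the 40.

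Other high CpH sites stood in runs. A run was taken as at least 4 consecutive shared CpH sites at 10% or more in both libraries, no more than 50 bp apart. There were 5 such runs with 40 sites, all in the chromosome 9 start segment, at positions 3000827 to 3000869, 3000890 to 3000933, 3002506 to 3002534, 3031083 to 3031127 and 3033493 to 3033523. They were 29 to 45 bp long and held 6 to 10 CpH sites each. None of the 28 run sites that could be placed stood at a unit CpG position, against 19 of the 32 placed among the 52 high sites outside runs. Over all placed CpH sites listed in both libraries, 27 stood at unit CpG positions and 3348 elsewhere. By that share, 0 of 28 does not set the run sites apart from other CpH sites. Levels in runs were higher in replicate 1 at 38 of 40 sites, with medians of 29.9% in replicate 1 and 15.9% in replicate 2, and 25 of the 40 passed Fisher's exact test between libraries, described further on. High sites outside runs leaned the same way: 43 of 52 were higher in replicate 1, with medians of 38.8% and 23.4%, and 9 of the 52 passed. Over all shared CpH sites of the chromosome 9 start segment 131 of 4061 (3.23%) passed. The run at positions 3031083 to 3031127 had the highest median, 50.9% and 43.6%. CpH sites within 100 bp on either side of the runs had medians between 0.982% and 2.27% over both libraries.

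In the chromosome 9 start segment the read ratio of replicate 1 to replicate 2 was mostly raised at high CpH sites and beside runs. The median ratio of replicate 1 to replicate 2 reads was 0.994 over the 40 run sites and 1.07 over the 44 high sites outside runs. It was 0.512 over all shared sites of the segment. By run the ratio was between 0.729 and 2.17. In the flanks of the runs, where CpH levels were low, it was between 0.836 and 1.61. The raised ratio was thus not confined to high CpH sites. Among the exceptions, position 3029781 had 985 reads in replicate 1 and 2521 in replicate 2. In the other segments every high CpH site had fewer reads in replicate 1 than in replicate 2. Few runs held a CpG: 2 CpG sites in the first run averaged 58.6% and 60.5%, and 1 in the fourth was at 26.9% and 36.2%. The part of depth in the levels of high CpH sites was not tested.

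The level of CpG sites also depended on their place in the unit. In the chromosome 9 start segment the CpG at unit position 185 was at a median of 66.0% in replicate 1 and 66.2% in replicate 2 over 51 copies, whereas the other 7 unit CpG positions had medians from 85.0% to 87.8% in replicate 1 and from 82.0% to 88.9% in replicate 2. Set against the other unit CpG sites within 117 bp of it, position 185 was lower in 46 of the 47 copies with such neighbours in each library, by a median of 19.5 points in replicate 1 and 19.8 points in replicate 2. In copies with at least 1000 reads in both libraries it lay between 60.2% and 68.7% in replicate 1 and between 60.4% and 69.7% in replicate 2 (14 copies).

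The position was low in most copies outside that segment. In the inner segment the CpG at position 35113018, at unit position 185, was the lowest CpG of the segment, at 68.8% of 76413 reads and 68.4% of 130709 reads. On chromosome 2, 3 copies in the same order had a median of 68.2% and 67.9%, and 2 copies in the opposite order 55.7% and 56.8%. One of the 3 was an exception, with 83.0% of 61669 reads and 86.2% of 80640 reads in the chromosome 2 segment, although still below its neighbours, and looser placing gave 4 copies in the same order with a median of 74.8% and 74.2%. The position was not listed as a CpG in the chromosome 12 segment, whose 5 CpG sites ranged from 88.4% to 93.5% in replicate 1. Because the position was picked as the lowest in the chromosome 9 start segment, its values there are a description.

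**Figure D4:**
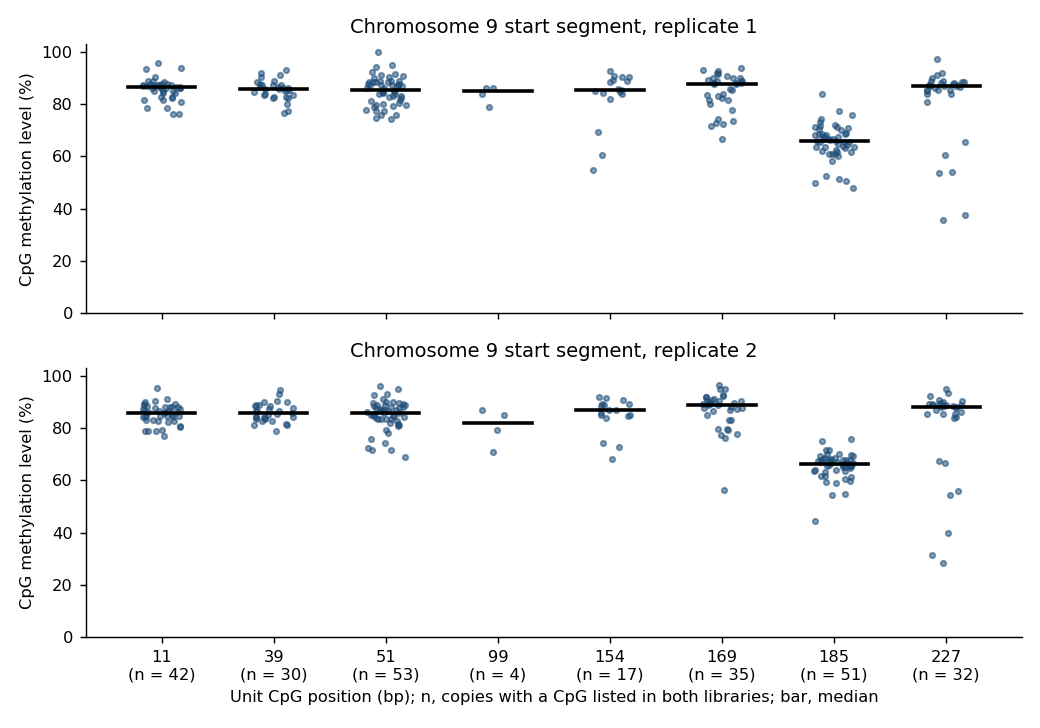
CpG methylation level (percent) of copies in the chromosome 9 start segment at the 8 unit CpG positions, in replicate 1 (top) and replicate 2 (bottom); points are single copies, bars medians, and n counts the copies listed in both libraries. Position 185 sits at a median of 66.0% and 66.2%, below the other positions, and position 227 has a tail of low copies that reaches 35.8% and 28.3%.

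CpG sites that stood away from the unit CpG positions were methylated less. In the chromosome 2 and chromosome 9 start segments 29 shared CpG sites were placed elsewhere in the unit, with a median level of 26.9% in replicate 1 and 29.2% in replicate 2, against 85.3% and 85.3% for the 296 at unit CpG positions. Of the 29, 7 were under 10% in both libraries, and 2 were at 80% or more in both. None of the 296 was under 10% in both. With looser placing the medians of the CpG sites elsewhere were 56.7% and 59.3% over 44 sites, so this value depends on the placing.

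Unit position 111 held 6 of the 29, all in the chromosome 9 start segment, at 0% to 8.11% in replicate 1 and 0.398% to 10.5% in replicate 2. In the chromosome 12 and inner segments unit position 111 was a CHH cytosine, at 0.774% and 0.653% in the chromosome 12 copy. By replicate 2, the lowest CpG of the chromosome 9 start segment with at least 100 reads in both libraries was one of these, at position 3017207 of chromosome 9, at 1.34% of 298 reads and 0.398% of 754 reads. The lowest of the chromosome 2 segment was at position 98503059, unit position 146, with 0.747% of 27425 reads and 0.511% of 42879 reads, although other CpG sites of that segment reached 93.6% and 93.8%. Unit position 146 was likewise CHH in the chromosome 12 and inner segments. Those CHH copies run in the opposite order to the chromosome 9 start segment, where 1 CHH cytosine was listed at unit position 111, at 0.631% and 1.15%. Whether reads of other copies were listed at these CpG sites was not tested.

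A CHH, a CHG and a CpG cytosine in direct succession occurred 5 times, and the CHG cytosine was high in 2 of the 5. At positions 103599158 to 103599160 of the chromosome 6 segment the succession was at 4.33%, 23.5% and 88.2% in replicate 1 and at 1.54%, 20.1% and 89.6% in replicate 2. The same arrangement 120 bp further on, at positions 103599278 to 103599280, was at 0.336%, 0.375% and 70.5% in replicate 1 and at 0.269%, 0.561% and 69.5% in replicate 2. At positions 98506538 to 98506540 of the chromosome 2 segment the succession was at 19.9%, 39.1% and 82.5% (replicate 1) and at 6.80%, 13.6% and 83.9% (replicate 2). Here the CpG stood close in the libraries, while both CpH cytosines were higher in replicate 1. The other pair on chromosome 2 had low CHG levels, at 0.541% and 0.551% (position 98502711) and at 1.46% and 0.488% (position 98502831).

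The binomial test called many more CpH sites in the segments than elsewhere, at levels that were mostly low. It called 715 of 4958 CpH sites in replicate 1 and 664 of 4623 in replicate 2, 14.4% each, against 2.95% of all nuclear CpH sites in replicate 1 and 2.57% in replicate 2. Both libraries called 438 of the 4457 CpH sites tested in both. Deep sites can pass this test at levels under 1%. With a level of at least 10% asked for as well, 186 sites in replicate 1 and 94 in replicate 2 were left, and 87 in both. By segment, both libraries called 89 of 345 on chromosome 2 and 323 of 4014 in the chromosome 9 start segment. They called 15 of 34 in the inner segment, 7 of 26 on chromosome 12 and 4 of 38 on chromosome 6. By share called, the segments ranked as by median depth, except that the chromosome 2 and chromosome 6 segments changed places. The part of depth was not tested.

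Site levels agreed closely between libraries for deep CpG sites, whereas the ranks of CpH sites, most of them low, agreed little. Across 495 shared CpG sites Pearson's r was 0.929 and the median absolute difference 2.09 points, and across the 157 with at least 1000 reads in both libraries r was 0.995. Across 4504 shared CpH sites r was 0.911 but Spearman's rho was 0.267, which rose to 0.442 over 1217 sites with at least 1000 reads. These are descriptions across sites of the same 2 libraries, and sites that share reads are not independent.

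**Figure D5:**
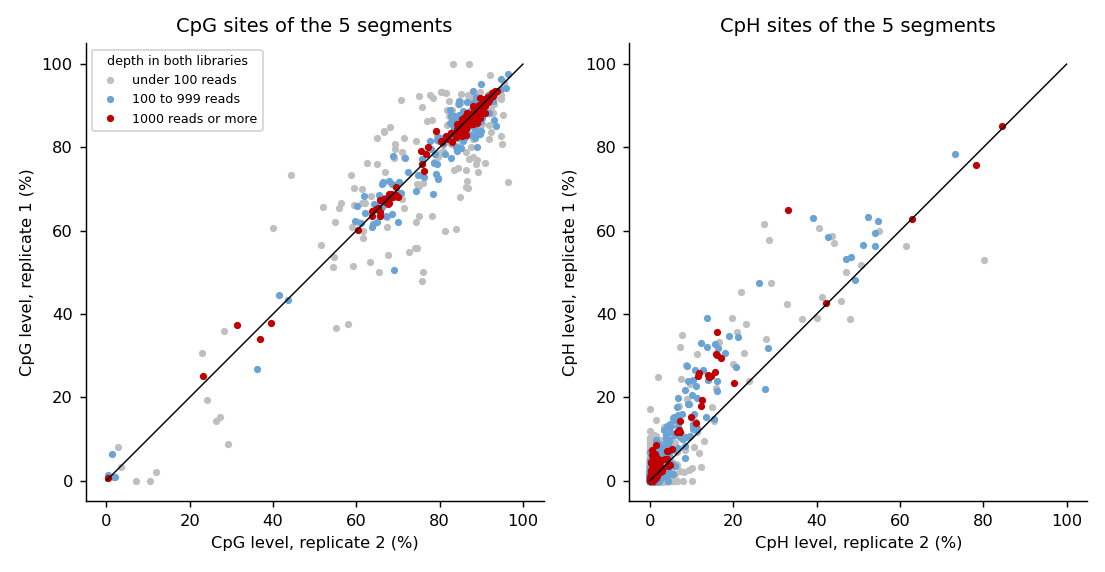
Methylation level (percent) of each shared cytosine of the 5 segments in replicate 1 (vertical) against replicate 2 (horizontal), for CpG (left) and CpH (right), coloured by the lower of the 2 depths; the line marks equal levels. Deep CpG sites lie on the line, whereas CpH sites between 10% and 60% mostly lie above it, higher in replicate 1.

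Where the libraries differed, CpH was higher in replicate 1 almost throughout. Fisher's exact test with Benjamini-Hochberg adjustment over all 108064 shared nuclear sites called 230 of 4999 segment sites (4.60%) at an adjusted p under 0.05, against 0.307% of all shared nuclear sites and 0.0990% of those outside the segments. Of the 215 CpH sites called, 210 were higher in replicate 1 and 5 in replicate 2, and of the 15 CpG sites called, 3 were higher in replicate 1 and 12 in replicate 2. Great depth makes small differences pass: 137 of the 230 differed by at least 1 point and 72 by at least 5 points. The largest difference was at the CHH cytosine at position 3002543 of chromosome 9, with 65.0% of 1945 reads against 33.0% of 1232 reads (adjusted p = 3.08e-66 by Fisher's exact test). It lies just beyond the third run. The CHG cytosine at position 98506539 of chromosome 2, described above, followed with 39.1% and 13.6% (Fisher's exact test, adjusted p = 1.26e-44).

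Of the 8 largest differences 7 were at CpH cytosines higher in replicate 1. Besides the first pair, these were the CHG cytosine at position 3031115 (63.0% in replicate 1 and 39.1% in replicate 2), the CHG at 3000827 (47.4% and 26.1%), the CHG at 3035938 (33.0% and 12.3%), the CHH at 3000906 (35.8% and 16.0%) and the CHH at 3035935 (27.5% and 8.79%), all on chromosome 9. Those at 3031115, 3000827 and 3000906 lie in runs. The only CpG among the 8, at position 3010596 of chromosome 9, went the other way, with 71.7% of 53 reads against 96.4% of 139 reads (adjusted p = 0.0024 by Fisher's exact test). Such calls compare these libraries and not conditions. The mitochondrial CpH level was also higher in replicate 1, by less than these differences. Of the 4 cytosines that dominated their segments, the inner one did not pass the test (replicate 1 minus replicate 2 was -0.255 points, Fisher's exact test, adjusted p = 1), while the other 3 did by smaller differences than those above. That difference was 0.805 points on chromosome 2, -2.62 points on chromosome 12 and 3.43 points for the CHG cytosine on chromosome 6 (Fisher's exact test, adjusted p = 0.00251, 2.58e-28 and 1.14e-08).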

How the data were processed

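Bisulfite reads of 2 dentate gyrus libraries were handled with Bismark 0.7.5 on mm9, per the submitters' processing notes. How reads were trimmed, and whether duplicates were removed, is not given in the sources used here. Tables come 1 per library and context: the authors deposited counts of methylated, unmethylated and total reads and a percent of methylated reads for each cytosine, on 1 strand class named OT. The lowest deposited count was 20 reads, and 30 in the CHH table of replicate 2. All contexts of a library were therefore used at the higher minimum for levels and calls (20 reads in replicate 1, 30 in replicate 2), which left out 146 segment sites of replicate 2, and at 20 reads in both libraries for shared sites.

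Levels were methylated over total reads. Intervals are exact Clopper-Pearson intervals at 95%. Calls used a one-sided exact binomial test against the mitochondrial CpH rate, adjusted by Benjamini-Hochberg at 0.01 within library and context, and libraries were compared with Fisher's exact test, two-sided and adjusted at 0.05, both over the whole tables. The tests and the placing in the unit were checked on simulated data. The simulated reads were independent and the simulated units were evenly spaced. The check therefore does not cover reads copied by PCR or units that are not evenly spaced. Python 3.11.15, scipy 1.17.1 and pandas 2.3.3 were used.

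The segments and lists were chosen with earlier results of these data known. Named sites were, in each segment, the 5 CpH sites with the highest level in replicate 2 and the highest and lowest CpG among sites with at least 100 reads in both libraries, the deepest site, and the 8 largest differences past the Fisher test. Sites named for their unit position, run or neighbours were chosen after their values were seen. With 1 group there is no comparison between conditions.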

Additional observations from a re-analysis of the deposited data

How the results depend on the processing

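Leaving out either library moved no segment level by more than the SD between them, which follows from having 2 libraries. Values that moved further are given as means of both libraries, in the order chromosome 2, chromosome 9 start, inner, chromosome 12 and chromosome 6 segment unless named. With sites weighted equally CpG was 80.1%, 77.9%, 87.9%, 91.0% and 81.7%, and CpH was 1.72%, 2.41% and 4.27% in the chromosome 9 start, inner and chromosome 12 segments. The difference from other nuclear CpH sites then reversed to 0.702 points in the chromosome 9 start segment, and was 1.39, 3.25 and 0.0692 points in the inner, chromosome 12 and chromosome 6 segments. After subtraction of mitochondrial CpH, CpH was 0.917%, 0.515%, 1.15%, 7.33% and 0.794%, and CpG was 85.1%, 83.5%, 89.9% and 85.4% in all but the chromosome 9 start segment. Without the site with the most methylated reads CpG was 84.9%, 81.9%, 81.2%, 90.8% and 85.3%, and CpH was 0.668%, 0.631%, 0.876% and 0.563% in all but the chromosome 9 start segment. Without CpH sites at 10% or more, an alternative chosen after seeing the data, CpH in the same 4 was 0.652%, 0.631%, 0.593% and 0.563%.

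The share of the 5 leading CpH sites, with sites weighted equally, was 45.5%, 81.6%, 90.5% and 65.4% in the chromosome 2, inner, chromosome 12 and chromosome 6 segments, and 65.0%, 78.7%, 97.0% and 42.6% for CHH alone. CpH sites called in both libraries numbered 438, and 173 at a background rate of 1%, 127 from a level of 5% and 87 from 10%. In single libraries 664 to 715 were called. Sites that differed between libraries fell in number to 137 with at least 1 point and 72 with at least 5 points. Pairs of high CpH sites 234 bp apart in the chromosome 9 start segment numbered 1 from a level of 5%, and 0 to 2 in single libraries, against 2164 for all listed CpH and 152 for CpG sites. Pearson's r of CpG was 0.982 from 100 reads and 0.995 from 1000 reads. Placings chosen after seeing the data gave unit position 185 minus its neighbours as -19.9 points both with looser and with stricter placing, and a median of 58.0% for CpG sites away from unit CpG positions with looser placing. Causes were not tested. No paired analysis was possible because the series has 1 group. Depth limits the chromosome 9 start segment most, where the median shared site had 188 and 356 reads.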
